A study of Sus scrofa with 599 samples.

Results

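Complement genes outside the C1q subcomponents were followed here in pig adipose tissue, namely C3, CFB, C2, C1R, C1S, CFI, C7 and SERPING1. These 8 genes were taken as a list of names, with no threshold on a measured value. In the expression table of 21280 protein-coding genes (PCGs), 14821 carried a symbol, and 6 of the 8 genes had a row. The 6 were C3 (ENSSSCG00000013551), CFB (ENSSSCG00000024914), C2 (ENSSSCG00000001422), CFI (ENSSSCG00000009138), C7 (ENSSSCG00000016859) and SERPING1 (ENSSSCG00000013181). C1R (ENSSSCG00000060530) and C1S (ENSSSCG00000055651) had no row under their symbols or identifiers, so their transcripts were not analysed here and they appear only in the chromatin measurements.

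The samples came from 2-year-old female Bama miniature pigs, 68 animals in all. The 12 pigs of the normal condition (NC) ate a normal diet, the 46 weight-gain (WG) pigs ate a high-fat diet for 22 weeks, and the 10 weight-loss (WL) pigs had the same 22 weeks of high-fat diet and then 12 weeks at 10% of the normal caloric intake. All WL pigs therefore carried a history of the high-fat diet, and no group was restricted without it. Each pig could give 4 adipose tissues (ATs). These were the greater omentum (GOM), mesenteric (MAD) and retroperitoneal (RAD) depots, which are visceral, and the upper layer of the backfat (ULB), which is subcutaneous. Total RNA was sequenced, and the libraries used here numbered 9, 12, 12 and 5 in NC for GOM, MAD, RAD and ULB, 45, 36, 39 and 38 in WG in the same order, and 10 for each AT in WL. The summed counts on PCGs ran from 3337098 to 22939420 per library, with a median of 16791659. Levels are given in TPM, transcripts scaled to length and to the library total, which can be compared between genes.

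Some libraries stood apart in ways that the nutritional groups did not define. The summed level of the 13 mitochondria-encoded genes ran from 5311 to 373617 TPM with no library between 72862 and 97001 TPM, and it divided the libraries into a high set of 100 and a low set of 136. The high set held 30 of 38 NC, 70 of 158 WG and 0 of 40 WL libraries. All 9 NC GOM libraries were in the high set, so this property and the diet cannot be told apart in any comparison of NC GOM with WL GOM. ALB, the albumin gene of hepatocytes, was above 500 TPM in 26 libraries. PCGs took under 88% of the TPM in 40 libraries, 17 of NC, 6 of WG and 17 of WL, with 7 of the 9 NC GOM libraries among them. Markers of T and B cells summed to over 400 TPM in 3 WL MAD libraries and 1 WG MAD library, and WG GOM replicate 35 had a median correlation of 0.586 with its group. The adipocyte marker list (9 of 9 genes, with ADIPOQ and PLIN1 among them) was present in every group, at median summed levels between 9025 and 24418 TPM. In bulk tissue, fewer cells of a type and less RNA per cell cannot be told apart.

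The complement system is a cascade of plasma proteases that marks cells and debris for removal and can open pores in membranes. C1R and C1S are the proteases that C1q carries into the classical pathway. C1S cleaves C4 and C2 to build a convertase that splits C3, the component on which all pathways converge. CFB supplies the protease of the alternative pathway convertase, and adipsin, the enzyme that activates it, is itself an abundant adipocyte product. C7 belongs to the membrane attack complex at the end of the cascade. SERPING1 encodes the C1 inhibitor, which blocks C1R and C1S, and CFI is the protease that inactivates the C3 and C4 fragments.

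On the Sscrofa11.1 assembly, as annotated by RefSeq, C2 (chr7:24020590-24034042) and CFB (chr7:24034077-24040523) lie head to tail on the plus strand with 34 bases between them. C1R (chr5:63644097-63655149, plus strand) and C1S (chr5:63670309-63681466, minus strand) are neighbours with 15159 bases between them. C3 (chr2:72431470-72471622, plus strand) and SERPING1 (chr2:13324160-13338826, minus strand) are on the same chromosome, CFI (chr8:112430824-112470844, plus strand) and C7 (chr16:25846860-25902707, plus strand) on others. RefSeq marks the C7 gene model as partial, so the start, bin and covered length given for C7 rest on an incomplete model. The promoter windows of C3, CFB and SERPING1, from 250 bases before the annotated start to 50 bases after it, are shown because C3 and CFB shared the depot pattern described next, while SERPING1 varied with a property of the libraries. Capitals mark matches to the searched motifs, and the windows are read in the direction of transcription.
CFB promoter, chr7:24033827-24034126, plus strand: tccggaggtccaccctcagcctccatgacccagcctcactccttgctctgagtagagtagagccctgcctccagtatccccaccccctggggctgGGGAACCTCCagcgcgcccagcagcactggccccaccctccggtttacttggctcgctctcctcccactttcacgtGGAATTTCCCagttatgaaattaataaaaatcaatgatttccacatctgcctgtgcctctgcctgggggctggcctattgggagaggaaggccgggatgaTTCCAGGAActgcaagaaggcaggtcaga
C3 promoter, chr2:72431220-72431519, plus strand: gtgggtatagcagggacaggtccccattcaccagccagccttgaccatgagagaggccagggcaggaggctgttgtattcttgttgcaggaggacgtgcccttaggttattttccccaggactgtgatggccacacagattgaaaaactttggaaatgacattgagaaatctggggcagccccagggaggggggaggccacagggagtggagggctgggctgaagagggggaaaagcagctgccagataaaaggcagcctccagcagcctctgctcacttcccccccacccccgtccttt
SERPING1 promoter, chr2:13338777-13339076, minus strand: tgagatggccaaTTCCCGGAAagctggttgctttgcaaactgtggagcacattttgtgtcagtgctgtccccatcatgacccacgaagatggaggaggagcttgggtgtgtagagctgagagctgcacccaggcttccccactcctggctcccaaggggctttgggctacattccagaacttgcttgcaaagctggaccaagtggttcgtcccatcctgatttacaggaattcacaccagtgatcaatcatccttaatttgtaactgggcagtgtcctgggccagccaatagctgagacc
The CFB window held a match to the NF-kB motif, searched by its name, at positions -155 to -146, another on the reverse strand at -79 to -70, and TTCCAGGAA, a match to the STAT motif TTCNNNGAA, at 22 to 30 after the start. Both NF-kB matches fell inside the annotated C2 gene, which ends 34 bases before CFB begins. SERPING1 held the STAT match TTCCCGGAA at -238 to -230. The C3 window held none of the motifs searched on both strands, which also included an interferon response core of GAAA, any 2 bases and GAAA, the C/EBP motif TTGCNNAA and the TATA motif TATAAA. Over 19556 promoter windows of the same length, 16.4% held the NF-kB motif, 7.12% the STAT motif, 3.57% the interferon response core, 9.46% the C/EBP motif and 10.9% the TATA motif.

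The 6 measured genes spanned group means from 5.28 TPM for CFB in WL ULB to 730 TPM for SERPING1 in NC GOM. SERPING1 had the highest mean of the 6 in 11 of the 12 groups, and C3 had it in WL GOM. CFB had the lowest mean in 6 groups, C2 in 5 and CFI in 1. The share of variation between groups differed widely. Differences among the 12 groups took 73.9% of the sum of squares of log2(TPM + 1) for CFI, 60.8% for CFB, 60.5% for C3, 45.7% for C7, 27.9% for C2 and 18.9% for SERPING1.

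**Figure D1:**
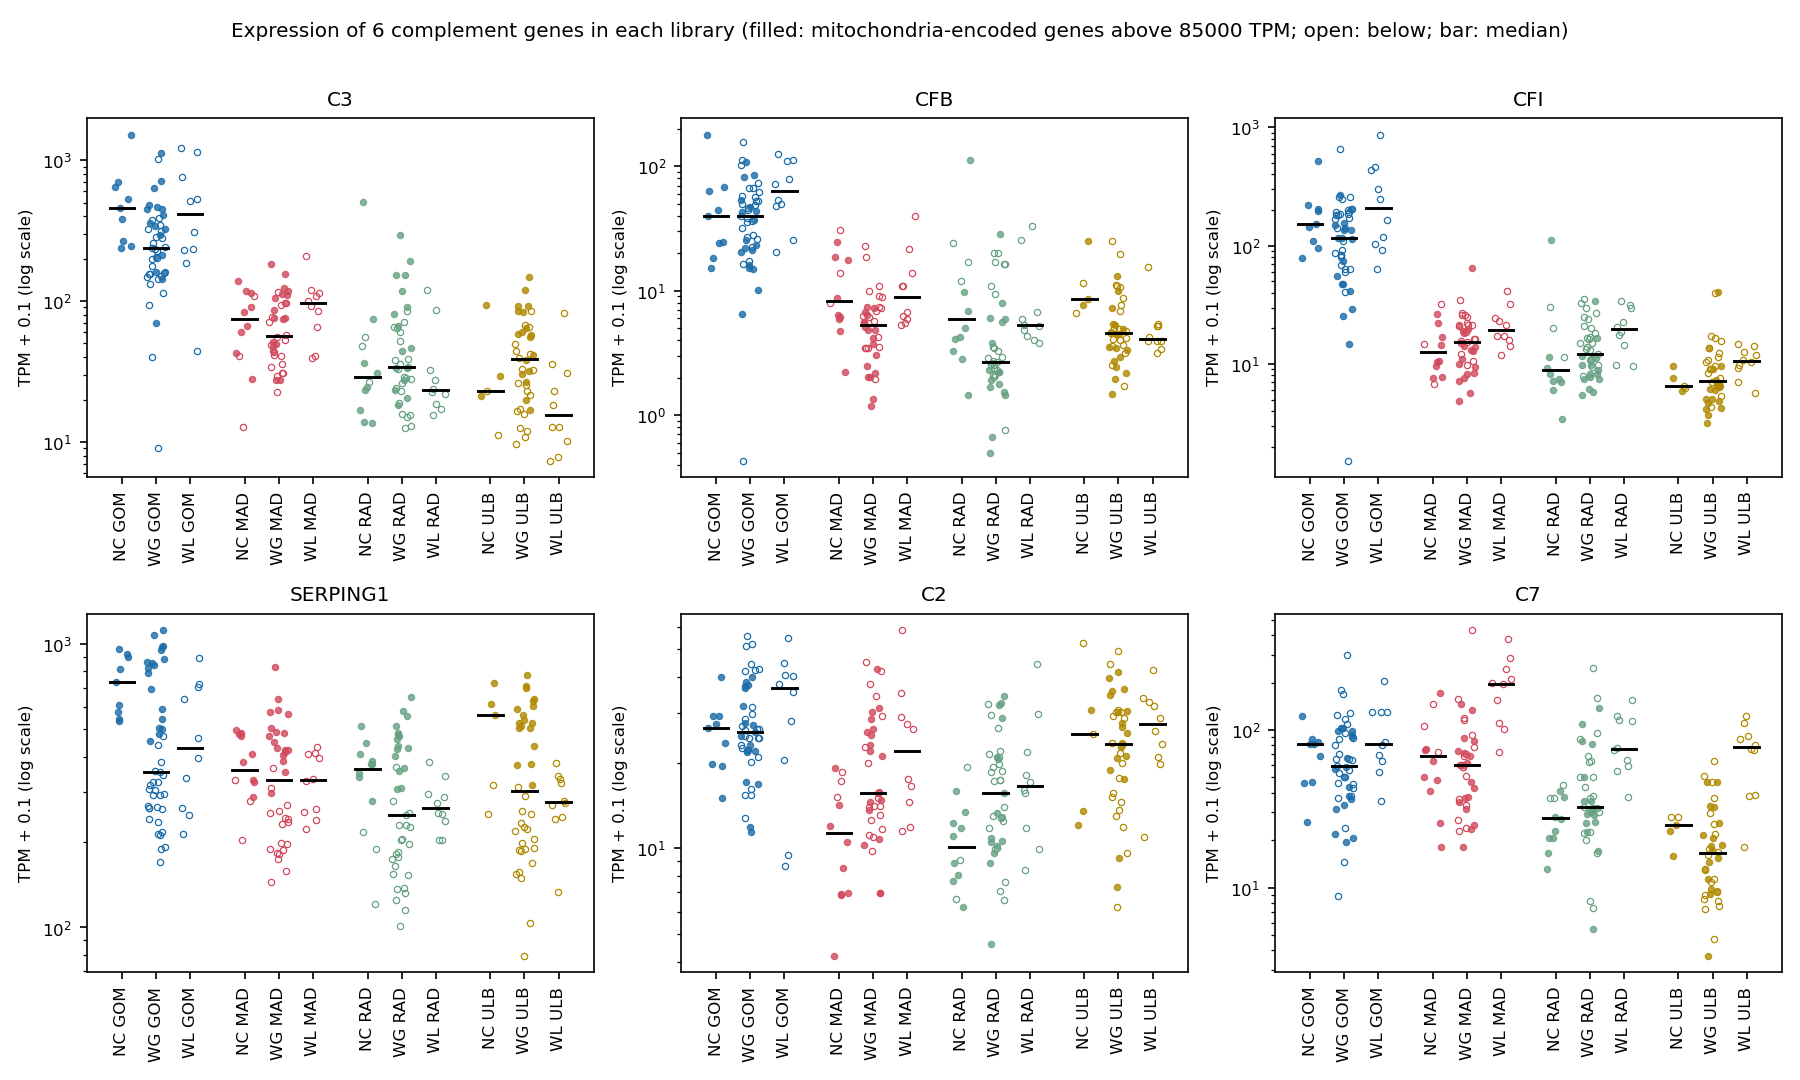
Level of the 6 measured complement genes in every library (TPM + 0.1, log axis) in the 12 groups of nutritional condition and AT. Filled points are libraries with mitochondria-encoded genes above 85000 TPM, open points those below, and bars are group medians. GOM stands above the other ATs for C3, CFB and CFI, and filled points lie above open ones for SERPING1 in WG.

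C3, CFB and CFI were highest in GOM in each nutritional condition, and CFI, the inactivator of C3 fragments, showed the widest range. In NC, CFI had a lowest value of 77.9 TPM, a median of 153 and a highest of 522 in GOM. The same 3 values were 6.61, 12.49 and 32.2 TPM in MAD, and 3.32, 8.72 and 112 TPM in RAD. In ULB the 5 libraries had 6.39, 7.53, 6.19, 5.82 and 9.60 TPM. The NC GOM libraries thus did not overlap those of MAD or ULB, and overlapped RAD through 1 library alone, NC RAD replicate 7 at 112 TPM. By edgeR's quasi-likelihood test, CFI was lower than in GOM by 3.70 on the log2 scale in MAD (SE 0.33, adjusted p = 1.6e-07), by 3.15 in RAD (SE 0.55, adjusted p = 0.000179) and by 4.80 in ULB (SE 0.42, adjusted p = 5.67e-07). Over the 12 groups, the mean of CFI was 40.2-fold higher in WL GOM than in NC ULB.

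C3, the central component, followed the same order. Its lowest, median and highest levels in NC were 239, 458 and 1515 TPM in GOM, 12.6, 74.97 and 139 TPM in MAD, and 13.6, 28.6 and 502 TPM in RAD, and the 5 NC ULB libraries, in ascending order, had 11.2, 21.1, 22.9, 29.4 and 93.1 TPM. GOM did not overlap MAD or ULB in NC. In WL the corresponding values were 43.8, 413 and 1214 TPM in GOM against 7.27, 15.5 and 82.0 TPM in ULB, and these ranges overlapped at their ends. The log2 difference of C3 between GOM and ULB was -4.07 in NC (SE 0.54), -2.57 in WG (SE 0.23) and -4.35 in WL (SE 0.58), with edgeR adjusted p-values of 4.11e-05, 3.03e-17 and 4.99e-06.

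CFB, the protease of the alternative pathway, was also highest in GOM, at a mean of 53.1 ± 51.1 TPM in NC (SD, n = 9), 45.4 ± 31.4 in WG (n = 45) and 69.7 ± 36.6 in WL (n = 10). Its other group means lay between 5.28 and 16.8 TPM. In WL, where GOM libraries ran from 20.4 to 124 TPM with a median of 63.0, ULB libraries ran from 3.04 to 15.4 TPM with a median of 3.99, and the groups did not overlap. CFB was lower in ULB than in GOM by 2.24 (NC), 2.79 (WG) and 3.70 (WL) on the log2 scale in edgeR (SE 0.52, 0.24 and 0.39, adjusted p = 0.004, 1.37e-17 and 1.74e-07).

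A gene was called when its adjusted p was under 0.05 and its fold change over 1.5. C3 and CFI were called in 9 of the 9 comparisons of GOM with another AT and CFB in 8 of 9, all higher in GOM. The exception was CFB between NC GOM and NC RAD (-1.47, adjusted p = 0.0957), where NC RAD replicate 7 stood at 111 TPM for CFB and 12157 TPM for ALB. Without the libraries above 500 TPM of ALB, the CFB difference between NC GOM and NC RAD was -3.25 on the log2 scale and was called. In NC, 5 of the 6 genes were called in GOM against ULB, where 25.4% of all tested PCGs were, 5 against RAD (19.5%) and 5 against MAD (17.7%). In WG, 4 were called against ULB (17.9%), 5 against RAD (11.2%) and 3 against MAD (6.27%). In WL, 4 were called against each of ULB, RAD and MAD, where 16%, 12.2% and 5.97% of PCGs were. All but 1 of these 39 calls were higher in GOM.

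Markers of mesothelial cells, which cover the omentum, were also higher in GOM. The 6 measured genes of that list summed to group medians of 219 to 358 TPM in GOM and 8.62 to 19.4 TPM in the other ATs. Among the 64 GOM libraries, within nutritional groups, the summed list correlated with CFI at r = 0.70, with CFB at r = 0.66, with C3 at r = 0.65, with C2 at r = 0.44, with SERPING1 at r = 0.28 and with C7 at r = 0.25. The adipocyte list was lower in GOM, at group medians of 9025 to 16135 TPM against 16289 to 24418 TPM in the other ATs, and the macrophage list reached 740 to 1109 TPM against 350 to 907 TPM. Among the GOM libraries C3 correlated with the adipocyte list at r = -0.39 and with the macrophage list at r = 0.44, CFB at -0.04 and 0.27, and CFI at -0.09 and 0.26. The fibroblast or progenitor list correlated with C3, CFB and CFI at r = 0.51, 0.52 and 0.49, and the T cell list at 0.46, 0.19 and 0.34. The fibroblast or progenitor list had group medians of 3222 to 4633 TPM in GOM and 2717 to 10480 TPM in the other ATs. These points share depth and tissue composition, and the part of these cell types in the difference was not tested. WG GOM replicate 35, the library least like its group, had the lowest C3 (8.91 TPM), CFB (0.332 TPM) and CFI (1.42 TPM) of GOM. The correlations among GOM libraries include it.

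The other members differed less between depots. SERPING1, the C1 inhibitor, was higher in GOM in 6 of the 9 comparisons, and its NC means were 730 ± 171 TPM in GOM (SD, n = 9), 374 ± 95.5 in MAD (n = 12), 333 ± 113 in RAD (n = 12) and 494 ± 201 in ULB (n = 5). All 9 NC GOM libraries lay between 532 and 957 TPM, above all 12 of MAD, which reached 498 TPM. The replicate number as a block, which the check of the pairing allowed for NC GOM and NC ULB, kept only the 4 numbers that both groups held. In that smaller fit the SERPING1 difference of -0.61 (edgeR adjusted p = 0.0499) became -0.76 (adjusted p = 0.0672) and was not called. C2, the classical pathway protease precursor, was called in 3 comparisons of GOM with another AT, and in NC it was higher in ULB than in MAD (log2 difference 1.18, SE 0.32, adjusted p = 0.029) and RAD (1.19, SE 0.28, adjusted p = 0.0149), with 25.2, 12.0, 52.8, 13.5 and 30.5 TPM in the 5 ULB libraries. The C2 ranges of NC ULB and NC MAD, which ran from 4.09 to 19.01 TPM, overlapped.

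C7, of the membrane attack complex, had its highest mean in MAD and its lowest in ULB in each nutritional condition. Its MAD and GOM means were close in NC (74.4 ± 46.5 and 71.6 ± 28.6 TPM, SD, n = 12 and 9). The same held in WG (73.5 ± 70.9 and 72.9 ± 51.7 TPM, n = 36 and 45). In NC, C7 had a median of 81.4 TPM in GOM and 67.9 TPM in MAD. In WL its lowest, median and highest levels were 72.7, 197 and 376 TPM in MAD, 35.1, 81.8 and 204 TPM in GOM, 37.6, 75.7 and 154 TPM in RAD and 17.96, 78.1 and 123 TPM in ULB. The 4 ranges overlapped. C7 was the only member called higher in another AT than in GOM, by 1.07 on the log2 scale in WL MAD (SE 0.31, edgeR adjusted p = 0.0395), and without the 4 libraries rich in T and B cell markers that difference was 0.89 (adjusted p = 0.174). In NC it was lower in RAD (-1.28) and ULB (-1.64) than in MAD, and in WG it was lower in ULB than in MAD (-1.81) and RAD (-1.31). Among MAD, RAD and ULB, 14 calls were made in 54 tests, 6 of them for C7. In NC there was 1 member call between MAD and RAD (2.41% of PCGs called), 2 between MAD and ULB (7.73%) and 1 between RAD and ULB (4.32%). In WG there were 0 (5.4%), 2 (14.4%) and 2 (9.27%), and in WL 1 (7.31%), 4 (14.4%) and 1 (4.34%). The replicate block added C3 between WG MAD and WG ULB (-0.81, adjusted p = 0.000192) and between WL MAD and WL RAD (-1.58, adjusted p = 0.00273), where the numbers paired the samples.

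In the order of the 12 group means, most neighbouring groups differed by less than their spread. Of 11 neighbouring pairs per gene, the gap exceeded the larger SD in 1 pair for CFI (WG GOM above WL MAD), in 1 for C7 (WL MAD above WL GOM) and in 1 for SERPING1 (NC GOM above NC ULB), and in 0 for C3, CFB and C2. The highest group mean exceeded the lowest 23.1-fold for C3, 13.2-fold for CFB, 9.52-fold for C7, 2.97-fold for C2 and 2.68-fold for SERPING1.

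Calls between nutritional groups fell on different members in different ATs. Of 72 tests between nutritional groups within an AT, 15 were called. Over all tested PCGs, the share called per comparison ran from 2.38% (NC to WG in ULB) to 36.1% (NC to WL in GOM). In the latter comparison 1 of the 6 members was called. The total of 15 is therefore not read as a trait of these genes. A call in a single AT does not show that the change differed among ATs. The test of that, given below, called C3 alone. The NC, WG and WL groups of an AT each enter 2 of its 3 comparisons, so these comparisons share samples. C7 accounted for 5 calls, all higher in WL, and CFB for 4, of which 3 were lower than in NC and 1 was higher in WL than in WG. SERPING1 was lower in 3, and C3, C2 and CFI were called in 1 each.

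**Figure D2:**
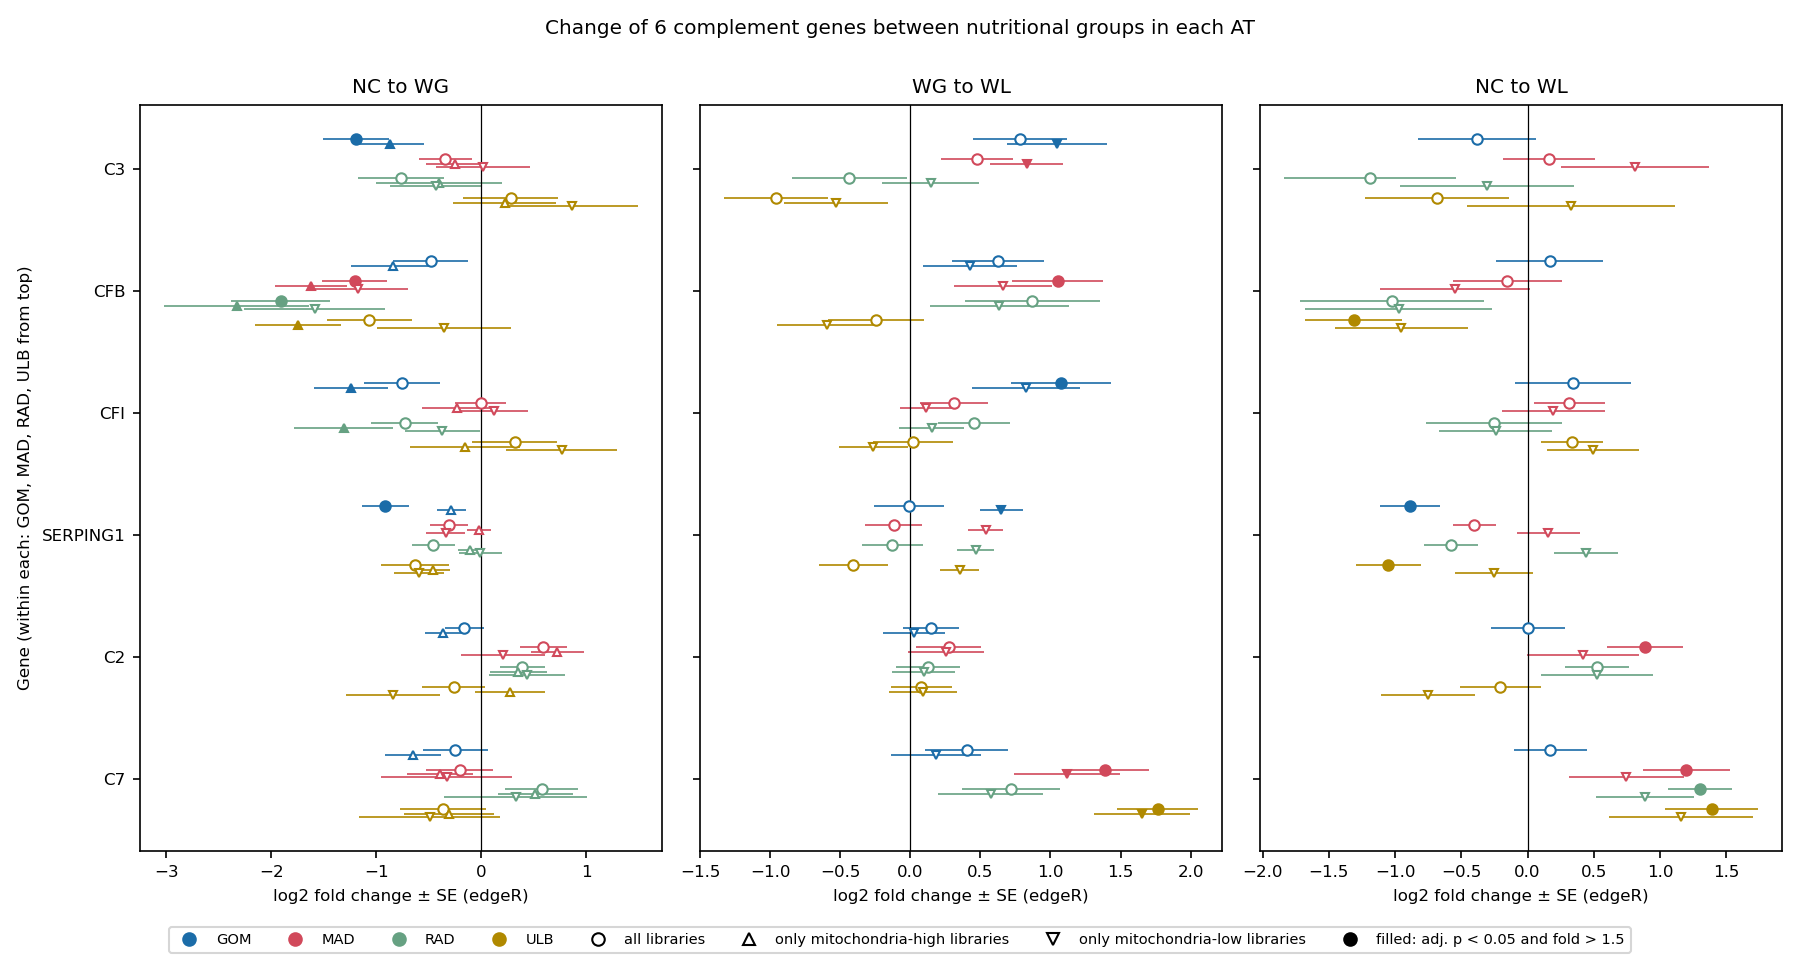
Log2 fold change (± SE, edgeR) of the 6 measured genes between nutritional conditions in each AT. Circles use all libraries, upward triangles only libraries with mitochondria-encoded genes above 85000 TPM and downward triangles only those below; filled symbols were called. C7 lies above 0 in WL against WG in each AT, and the circles of SERPING1 lie below 0 in WL against NC in each AT.

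C7 rose with weight loss in ULB and MAD. In ULB its 5 NC libraries had 27.9, 25.0, 27.9, 15.8 and 22.7 TPM, the WG libraries a lowest of 3.58, a median of 16.4 and a highest of 63.3 TPM, and the WL libraries 17.96, 78.1 and 123 TPM. All 10 WL libraries were above the WG median and 7 of 10 were above the highest WG library. C7 was higher in WL ULB than in WG ULB by 1.76 on the log2 scale (SE 0.29, edgeR adjusted p = 1.54e-05), as the only member called where 8.12% of PCGs were. Against NC ULB it was higher by 1.39 (SE 0.35, adjusted p = 0.0118).

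In MAD, C7 had a lowest, median and highest level of 18.1, 67.9 and 172 TPM in NC, 17.97, 59.7 and 431 TPM in WG and 72.7, 197 and 376 TPM in WL. All 10 WL libraries again exceeded the WG median, but the WG range enclosed the WL range. C7 rose by 1.39 from WG to WL (SE 0.31, edgeR adjusted p = 0.000762) and was 1.20 higher than in NC (SE 0.33, adjusted p = 0.00551). The WG library at 431 TPM and 3 of the 10 WL libraries were the 4 with T and B cell markers above 400 TPM, and without them C7 rose by 1.48 from WG (adjusted p = 0.000598) and stood 1.02 above NC (adjusted p = 0.0401).

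In RAD, C7 was higher in WL than in NC by 1.299 (SE 0.24, edgeR adjusted p = 0.000235), with 13.04, 27.4 and 44.97 TPM as the lowest, median and highest in NC and 37.6, 75.7 and 154 TPM in WL, and 9 of 10 WL libraries lay above the highest NC library. The difference from WG was not called in RAD (0.72, adjusted p = 0.162) or GOM (0.40, adjusted p = 0.434). A test of whether the WG to WL change of C7 differed among the 4 ATs gave an adjusted p of 0.169. Within the libraries low in mitochondria-encoded genes, the rise from WG to WL was 1.65 in ULB (adjusted p = 0.000426) and 1.12 in MAD (adjusted p = 0.0289), both called. The differences from NC in that set, which left 3 MAD, 3 RAD and 2 ULB libraries of NC, were 0.74, 0.89 and 1.16 and were not called.

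CFB fell with weight gain in MAD and RAD. Its lowest, median and highest levels in MAD were 2.14, 8.25 and 30.5 TPM in NC, 1.08, 5.21 and 22.6 TPM in WG and 5.26, 8.77 and 39.7 TPM in WL, and the groups overlapped. CFB was lower in WG than in NC by 1.21 on the log2 scale (SE 0.31, edgeR adjusted p = 0.00463), as the only member called where 10.7% of PCGs were. It was higher in WL than in WG by 1.05 (SE 0.32, adjusted p = 0.0115), where CFB and C7 were the 2 members called against 17.4% of PCGs. Without the libraries above 500 TPM of ALB that rise was 0.75 (adjusted p = 0.0527).

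In RAD, CFB had 1.35, 5.85 and 111 TPM as its lowest, median and highest in NC and 0.396, 2.58 and 28.5 TPM in WG, and the groups overlapped. It was lower in WG by 1.91 (SE 0.47, edgeR adjusted p = 0.00142), again as the only member called (16.7% of PCGs). In ULB the 5 NC libraries had 6.51, 8.56, 11.5, 7.59 and 25.1 TPM, and CFB was lower in WL, which ran from 3.04 to 15.4 TPM with a median of 3.99, by 1.31 (SE 0.37, adjusted p = 0.0201). Within the libraries high in mitochondria-encoded genes, CFB was lower in WG than in NC by 1.62 in MAD (adjusted p = 0.00282), 2.33 in RAD (adjusted p = 0.0119) and 1.74 in ULB (3 NC libraries, adjusted p = 0.00952), all called, and by 0.84 in GOM (adjusted p = 0.111), not called. Within the low set, with 3 MAD, 3 RAD and 2 ULB libraries of NC, the same differences were -1.17 in MAD (adjusted p = 0.314), -1.59 in RAD (adjusted p = 0.163) and -0.35 in ULB (adjusted p = 0.905), and none was called. The low set did not call the WG to WL difference of CFB in MAD (0.66, adjusted p = 0.164) or its NC to WL difference in ULB (-0.95, adjusted p = 0.223). In each WG depot CFB was lower in the high than in the low set, with ratios from 0.538 in MAD and 0.627 in ULB to 0.701 in RAD and 0.739 in GOM.

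C3 and CFI changed in GOM. C3 fell from NC, at 239, 458 and 1515 TPM, to WG, at 8.91, 236.02 and 1133 TPM (lowest, median and highest), by 1.19 on the log2 scale (SE 0.31, edgeR adjusted p = 0.00232). In that comparison C3 and SERPING1 were the 2 members called, against 26.7% of PCGs. Within the high set of libraries the difference of C3 was -0.87 (adjusted p = 0.0444) and that of CFI, which all libraries placed at -0.76 (adjusted p = 0.0878), was -1.24 (adjusted p = 0.00962). From WG to WL the GOM level of CFI rose by 1.08 (SE 0.36, adjusted p = 0.0478), with 1.42, 117 and 652 TPM in WG and 63.6, 206 and 867 TPM in WL, as the only member called where 5.26% of PCGs were. Within the low set CFI rose by 0.82 (adjusted p = 0.146, not called), while C3 rose by 1.05 (adjusted p = 0.0388) against 0.78 in all libraries (adjusted p = 0.139). These ranges overlapped.

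SERPING1 levels differed between the sets of libraries high and low in mitochondria-encoded genes. In WG, its mean was 772 TPM in the high set and 289 TPM in the low set of GOM, 484 and 223 TPM in MAD, 451 and 190 TPM in RAD, and 545 and 199 TPM in ULB. The ratios of 2.67, 2.17, 2.37 and 2.74 lay above those of 93.3% to 94.1% of PCGs in the same depots, where 31.3% to 38.5% of PCGs differed more than 1.5-fold in either direction. C3 also had higher means in the high set, with ratios of 1.64, 1.60, 2.42 and 1.93 in the same order. CFI had lower ones, with ratios of 0.658, 0.762, 0.586 and 0.715, and C2 lay between 0.894 and 1.16. C7 had ratios of 0.718, 0.694, 0.857 and 0.981, and all WL libraries belong to the low set.

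**Figure D3:**
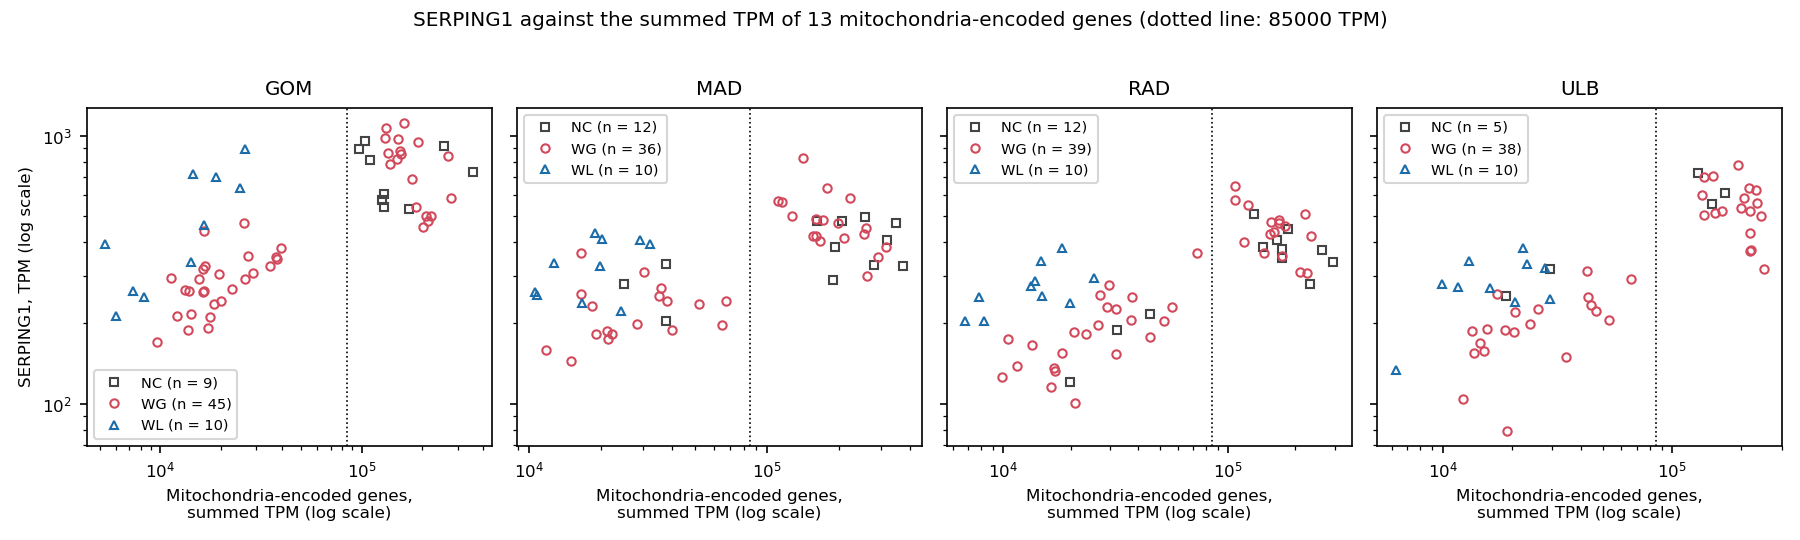
SERPING1 level against the summed level of the 13 mitochondria-encoded genes in every library (both TPM, log axes), by AT and nutritional condition. The libraries fall into separate clouds below 72862 and above 97001 TPM, most WG libraries of the higher cloud have more SERPING1 than those of the lower in each AT, and WL libraries lie in the lower cloud alone.

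Across all libraries, SERPING1 fell from NC to WG in GOM by 0.91 on the log2 scale (SE 0.22, edgeR adjusted p = 0.00125), from 532, 734 and 957 TPM to 170, 352 and 1117 TPM (lowest, median and highest), and the groups overlapped. Within the high set the difference was -0.28 (adjusted p = 0.127). From NC to WL it fell by 0.89 in GOM (SE 0.22, adjusted p = 0.00218), as the only member called where 36.1% of PCGs were, and by 1.05 in ULB (SE 0.25, adjusted p = 0.00802), where 3 members were called against 14.8% of PCGs. The 5 NC ULB libraries had 252, 558, 318, 614 and 727 TPM and the WL ULB libraries ran from 134 to 381 TPM with a median of 276. Within the low set, which left 2 NC ULB libraries, the ULB difference was -0.25 (adjusted p = 0.604).

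Between WG and WL the SERPING1 difference in GOM was -0.01 in all libraries (adjusted p = 0.988) and 0.65 within the low set (SE 0.16, adjusted p = 0.00384), called as higher. The same set gave 0.54 in MAD (adjusted p = 0.00333), 0.47 in RAD (adjusted p = 0.0144) and 0.35 in ULB (adjusted p = 0.0521), all under 1.5-fold. In all libraries the differences in these ATs were -0.12, -0.13 and -0.41, none of them called, so the sign of the SERPING1 difference turned in each of the 4 ATs with the restriction.

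SERPING1 levels also went together between depots of the same animal number. Across WG pigs, the log2 level in a depot correlated with that in another depot of the same number at r = 0.79 to 0.87 over the 6 depot pairs, where the median over PCGs was 0.41 to 0.56. Within the high or the low set alone these correlations were 0.09 to 0.70, and 42 of 45 WG numbers had all their libraries in the same set. Over the same 6 depot pairs C7 correlated at r = 0.29 (GOM and RAD) to 0.76 (MAD and RAD) and C2 at r = 0.24 (GOM and RAD) to 0.74 (RAD and ULB).

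Counted over all members, the libraries of the high set alone gave 2 calls between NC and WG for GOM (12.7% of PCGs called), 2 for RAD (15.4%), 1 for MAD (8.29%) and 1 for ULB (6.71%), all lower in WG. The low set alone gave 2 calls between WG and WL for GOM (8.41%), 2 for MAD (13.6%), 1 for ULB (13.4%) and 0 for RAD (5.46%), all higher in WL. Between NC and WL it gave 0 for MAD, RAD and ULB, where 9.2%, 12.1% and 11% of PCGs were called.

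C2 was called in 1 comparison of nutritional groups. In MAD its lowest, median and highest levels were 4.09, 11.2 and 19.01 TPM in NC, 6.84, 15.6 and 45.01 TPM in WG and 11.4, 21.8 and 58.4 TPM in WL. C2 was higher in WL MAD than in NC MAD by 0.89 on the log2 scale (SE 0.28, edgeR adjusted p = 0.0141), where C2 and C7 were the 2 members called against 33.1% of PCGs, and the ranges overlapped. Within the libraries low in mitochondria-encoded genes, which left 3 NC MAD libraries, that difference was 0.42 (edgeR adjusted p = 0.53) and was not called. The mean of C2 in NC MAD was 9.83 TPM in the 9 libraries of the high set and 16.9 TPM in the 3 of the low set. The NC to WG difference of 0.59 was not called (adjusted p = 0.0515). The macrophage marker list summed to group medians of 350, 838 and 761 TPM in NC, WG and WL of MAD, and within groups it correlated with C2 at r = 0.66 over the 172 libraries of MAD, RAD and ULB and at r = 0.59 over the 64 of GOM. Its part in the difference was not tested.

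Hepatocyte markers moved with CFB, CFI and C3 in single libraries. Over the 172 libraries of MAD, RAD and ULB, ALB correlated within groups with CFB at r = 0.68, with CFI at r = 0.52 and with C3 at r = 0.33, and over the 64 GOM libraries at 0.11, 0.05 and 0.03. NC RAD replicate 7, with 12157 TPM of ALB, had 502 TPM of C3, 111 of CFB and 112 of CFI, each the highest of its group. Without the 26 libraries above 500 TPM of ALB, C3 was lower in WL than in WG in RAD (-1.32, edgeR adjusted p = 0.0481) and ULB (-1.43, adjusted p = 0.00592). In the same libraries CFI was higher in WL RAD than in NC RAD by 0.88 (adjusted p = 0.00649), where all libraries gave -0.26 (adjusted p = 0.71). The part of hepatocyte RNA in these levels was not tested.

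Leaving out the 40 libraries with under 88% of their TPM on PCGs ended 8 of the 15 calls between nutritional groups by edgeR. In GOM, where 2 NC libraries were left, the NC to WG differences became -0.83 for C3 (adjusted p = 0.32) and -0.94 for SERPING1 (adjusted p = 0.163), and CFI rose by 0.07 from WG to WL (adjusted p = 0.953). In MAD, the WG to WL differences became 0.79 for CFB (adjusted p = 0.37) and 1.43 for C7 (adjusted p = 0.0959), and the NC to WL differences 1.11 for C2 (adjusted p = 0.0503) and 1.24 for C7 (adjusted p = 0.0832). In RAD, CFB was at -1.15 between NC and WG (adjusted p = 0.195). The same libraries added calls for C3 from WG to WL, lower in RAD (-1.45, adjusted p = 0.0238) and ULB (-1.72, adjusted p = 0.00332), and for CFB from NC to WL, lower in RAD (-1.51, adjusted p = 0.0142). The rise of C7 in WL ULB was among the calls that held.

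In the remaining comparisons 0 members were called between NC and WG in ULB (2.38% of PCGs called) and 0 between WG and WL in RAD (6.37%), and 1 between NC and WL in RAD, C7 (26.7%). Whether a change differed among the 4 ATs was tested in a single fit of the 12 groups and 15068 PCGs. By that edgeR test C3 differed between WG and WL (adjusted p = 0.0499), where 6.41% of PCGs did, with log2 changes of 0.78 and 0.48 in GOM and MAD, and of -0.44 and -0.96 in RAD and ULB. Without the 26 libraries rich in ALB that adjusted p was 0.000148, and without the 4 rich in T and B cell markers it was 0.21. For NC against WG (8.8% of PCGs) and NC against WL (8.32%), 0 members were called.

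Within groups the members fell into pairs that varied together. Over the libraries of all 12 groups, CFB and CFI correlated at r = 0.73, C3 and CFB at r = 0.52 and C3 and SERPING1 at r = 0.51, while CFB and SERPING1 were at r = -0.08. Over the 12 group means C3, CFB and CFI correlated with each other at 0.90 to 0.94, and C7 and SERPING1 at 0.05. Among 15865 PCGs, the genes whose 12 group means of log2(TPM + 1) were most like a member's were ARHGAP8, ENSSSCG00000013078 and SMTNL2 for C3 (r = 0.984, 0.980 and 0.974), CLIC3, PKP2 and DUOXA1 for CFB (0.981, 0.971 and 0.967), and ENSSSCG00000010893, MYO5B and ENSSSCG00000002653 for CFI (0.989, 0.986 and 0.984). They were BANP, NEDD4 and TRIM4 for C7 (0.972, 0.957 and 0.929), TBC1D2B, ZC3H12C and FKBP10 for C2 (0.939, 0.934 and 0.927), and TPD52L1, FUT2 and SLC6A20 for SERPING1 (0.961, 0.955 and 0.948). The points share libraries between genes, and 12 means allow many genes to reach such values.

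In situ Hi-C gave an A-B index per 20-kb bin in 240 samples, a score above 0 in the active compartment A and below 0 in the inactive compartment B. The bins at the start of all 8 genes, C1R and C1S included, were above 0 in all 240 samples, where a median of 48.5% of the 113298 bins of a sample were. The genes therefore differed in how far above 0 they lay, from 0.644 to 3.30 at C7 to 3.49 to 6.46 at the bin that CFB and C2 share. A bin was called when limma gave an adjusted p under 0.05 and a difference over 0.75.

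**Figure D4:**
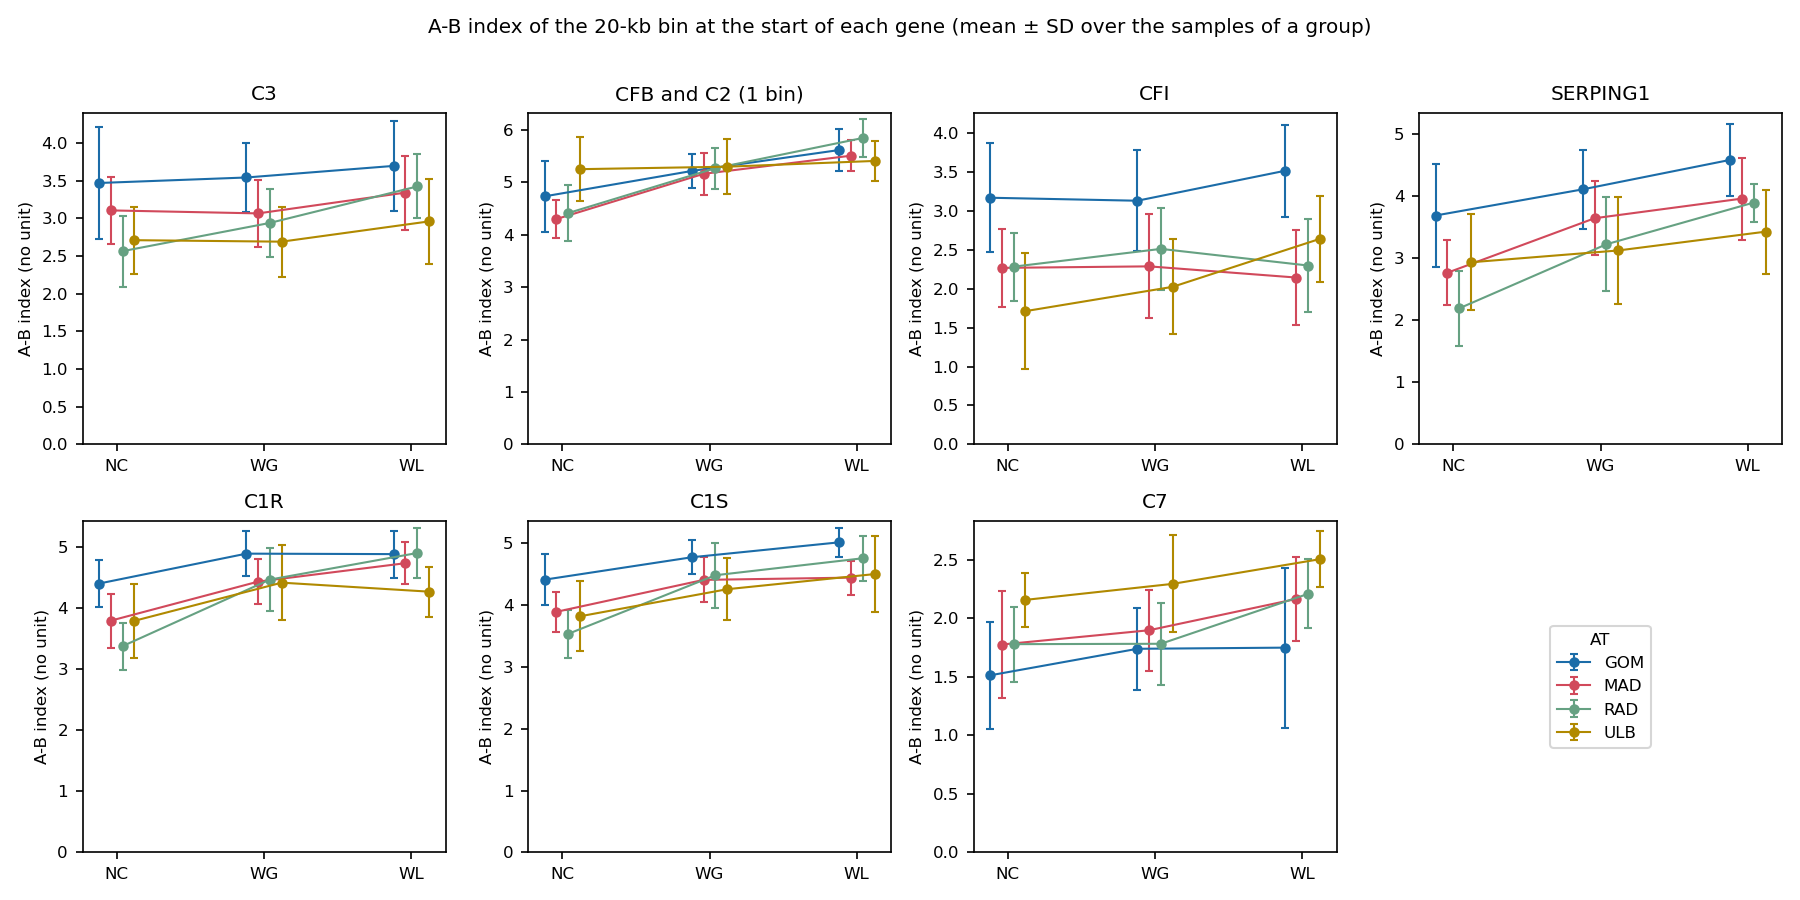
A-B index (mean ± SD over samples, no unit) of the 20-kb bin at the start of each gene in the 12 groups, with CFB and C2 in a shared bin. All means are above 0, CFI is highest in GOM, and the CFB and C2, C1R, C1S and SERPING1 bins are lower in NC than in WG and WL in MAD and RAD.

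At CFI the index was higher in GOM, as its transcript was. Its mean was 3.17 ± 0.70 in NC GOM (SD, n = 9) against 2.27 ± 0.50 in MAD (n = 12), 2.28 ± 0.44 in RAD (n = 12) and 1.71 ± 0.74 in ULB (n = 5), and limma called all of these differences (-0.90, -0.89 and -1.46, adjusted p = 0.0184, 0.00599 and 0.00848). In WL it was 3.51 in GOM against 2.14 in MAD, 2.30 in RAD and 2.64 in ULB, again all called. In WG the differences from MAD (-0.84) and ULB (-1.11) were called. In NC, bins of 2 of the 8 genes were called against MAD (9.11% of all bins called), of 5 against RAD (18.6%) and of 1 against ULB (20.5%). In WG these counts were 1 (6.27%), 1 (12%) and 3 (18.8%), and in WL 1 (13%), 1 (17.7%) and 3 (19.4%). Among the other ATs, the shared bin of CFB and C2 was higher in NC ULB than in NC MAD (11.2% of bins called) and NC RAD (14.9%), and 0 of the 8 genes were called between NC MAD and NC RAD (5.13%). In WG 0 were called between MAD and RAD, MAD and ULB, or RAD and ULB (1.25%, 12.1% and 11.3% of bins), and in WL 0 in the same comparisons (1.07%, 7.66% and 5.71%).

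Of the 44 calls, 22 were between nutritional groups, and all 22 were higher after weight gain or weight loss. The direction over all bins is not given here, so the shared direction is not shown to be particular to these genes. After quantile normalization the 44 calls were 29. Between NC and WG, it lowered the bins called genome-wide from 5070 to 2096 in MAD and from 4898 to 2688 in RAD. Since CFB and C2 share a bin, its calls count for both. The shared bin of CFB and C2 rose from 4.30 ± 0.36 in NC MAD (SD, n = 12) to 5.16 ± 0.40 in WG MAD (n = 37), by 0.86 (limma adjusted p = 8.87e-06), and stood at 5.50 ± 0.30 in WL MAD (n = 10). CFB transcripts were lower in WG MAD over the same comparison. C1R, a protease of the C1 complex, rose from 3.38 in NC RAD to 4.47 in WG RAD (1.09, adjusted p = 5.25e-06) and 4.90 in WL RAD (1.53 above NC), and its neighbour C1S from 3.53 to 4.48 and 4.75. SERPING1 rose from 2.19 in NC RAD to 3.23 in WG RAD and 3.90 in WL RAD, the widest change of the 8 (1.71, adjusted p = 7.14e-07). In RAD, bins of 5 of the 8 genes were called between NC and WG, where 4.32% of all bins were, and of 6 between NC and WL (15.8% of bins). In MAD the counts were 3 (4.47%) and 4 (11.2%). Between NC and WL the CFB and C2 bin and SERPING1 were also higher in GOM, as 3 of the 8 genes (10.1% of bins), and CFI was higher in ULB (13.7%). From NC to WG there were 0 calls in GOM (2.79%) and ULB (6.15%), and from WG to WL 0 in any AT, with 2.53%, 1.01%, 3.83% and 9.96% of bins called for GOM, MAD, RAD and ULB. C7, whose transcripts rose in WL, had no call between nutritional groups.

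H3K27ac, a histone mark of active enhancers and promoters, was available as lists of merged regions, 18 in all and 5 of them from GOM. Most were called on pooled samples, but the NC MAD list and a list of WG RAD each came from a single H3K27ac sample. Each list held 18143 to 25819 regions, of which 1.98% to 6.79% were ranked as super-enhancers, that is, as clusters of unusually strong signal. With a flank of 10 kb, 141 of the 144 pairs of gene and list had a region. The share of all genes that meet a region was not computed. Counts of lists with a region are therefore not read as a trait of these genes. A pool gives no replicate, so the lists are described without a test.

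**Figure D5:**
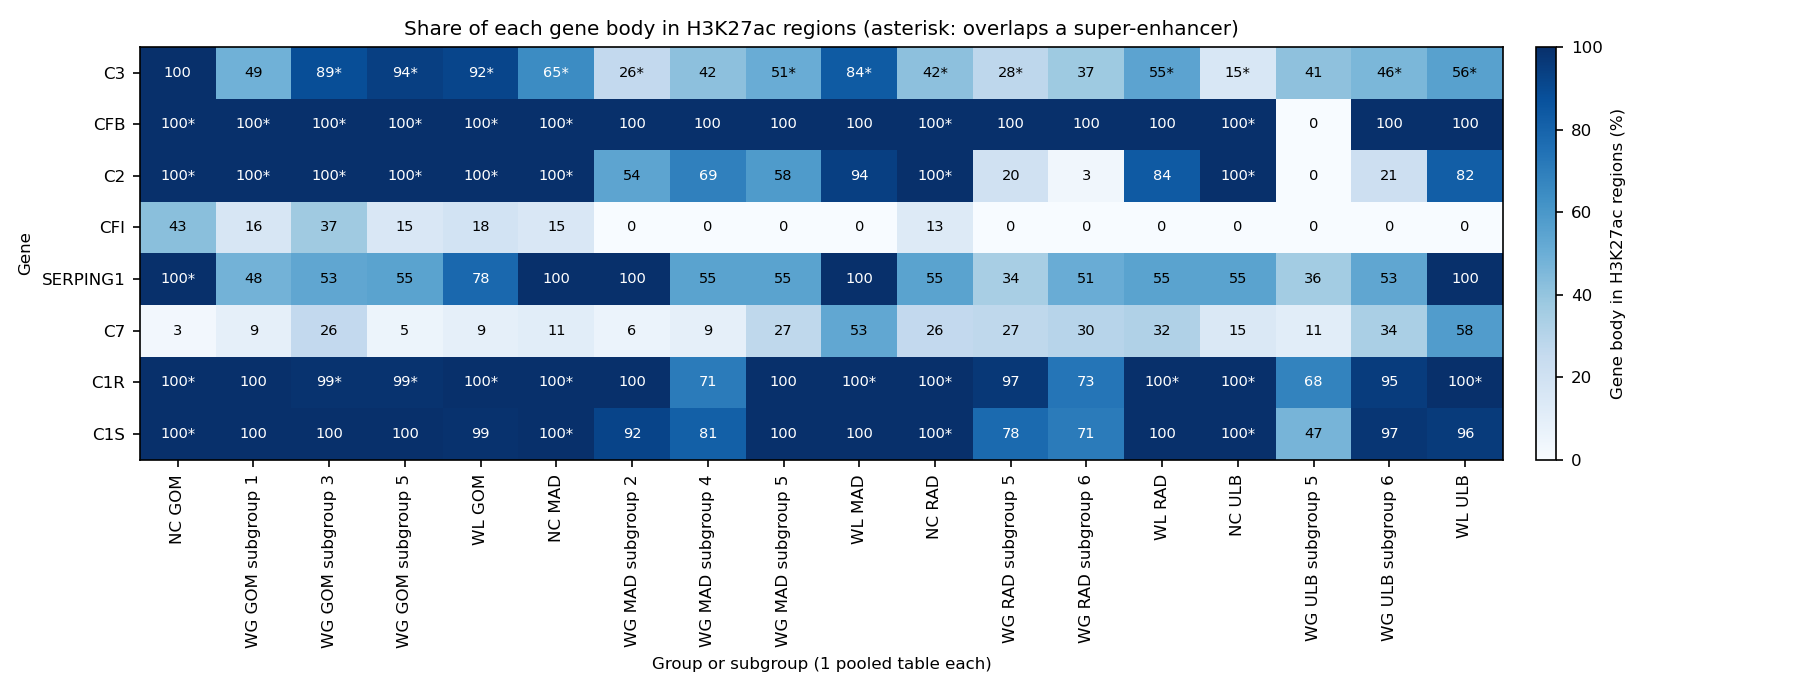
Percent of the gene body covered by H3K27ac regions for the 8 genes in the 18 region lists, with asterisks where a region was ranked as a super-enhancer. CFI is covered in all 5 GOM lists and in 2 of the 13 others, and C7 is most covered in WL ULB and WL MAD.

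The CFI gene body overlapped a region in 5 of 5 GOM lists, covering 14.9% to 42.5% of it, and in 2 of 13 others, NC MAD and NC RAD. With the 10-kb flank, 16 of the 18 lists had a region at CFI, so regions near the gene were not confined to GOM. No list ranked a region at CFI as a super-enhancer. CFB and C2 lay in a super-enhancer in 5 of 5 GOM lists and in 3 of 13 others, the NC lists of MAD, RAD and ULB. The NC regions there were 110400 to 567800 bases long, with H3K27ac signal 1.58 to 2.14 times that of input. In the WG and WL lists with a region over CFB, these values were 8400 to 76400 bases and 2.14 to 4.38. The part of region length in these ranks was not tested. C3 was covered in 18 of 18 lists and was ranked as a super-enhancer in 3 of 5 GOM lists and 10 of 13 others, although its transcripts were highest in GOM. C7 was covered in 18 of 18 lists, by 2.51% to 57.7% of its length, with the highest shares in WL ULB (57.7%) and WL MAD (53.1%), the depots where its transcripts rose from WG to WL. The best-ranked regions there were 110600 and 57400 bases long. Their signal was 1.78 times that of input in WL ULB, against 1.75 and 1.98 in the WG ULB lists. In WL MAD it was 2.31 times, against 1.53 to 1.67 in the WG MAD lists. C1R was covered in all 18 lists. SERPING1 was ranked as a super-enhancer in NC GOM alone, where its region was 202800 bases long, against 9400 to 49000 bases in the other lists.

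The other complement genes, a list of 44 with 31 in the table, had most calls in MAD among the comparisons of nutritional groups. From NC to WL in MAD, 13 of the 24 tested were higher and 1 was lower, where 33.1% of all PCGs were called (median log2 change 0.90, against -0.01 over all PCGs). From WG to WL 11 of 24 were higher and 1 lower, where 17.4% of PCGs were called (median 0.62, against -0.02). These counts use all libraries. All 10 WL MAD libraries were in the set low in mitochondria-encoded genes, as were 3 of the 12 of NC MAD. Of the WL MAD libraries, 3 were rich in T and B cell markers. FCN2, a ficolin that starts the lectin pathway, had 17 calls over the 30 comparisons, 8 of them between nutritional groups and all of these higher in the group that had gained or lost weight. MASP2, the protease that ficolins carry, had 9 calls between nutritional groups, 8 of them lower, with a log2 change of -3.06 from NC to WG in GOM. C4A, which C1S cleaves, was higher in GOM than in MAD by 2.98 on the log2 scale in NC and by 2.40 in WG, and rose by 1.75 from WG to WL in MAD. Other genes with many calls were MASP1 (14, all between ATs), C5 and VSIG4 (12 each), CLU (11), VTN and C5AR2 (10 each), ITGAM and COLEC12 (9 each) and C1QC (8), the last a C1q subcomponent given for comparison.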

How the data were processed

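The authors sequenced total RNA, quantified transcripts with kallisto 0.43.0 and summed them to genes with tximport, and both the estimated counts and the TPM were deposited. The A-B index, a deposited score per 20-kb bin, was made by the authors from in situ Hi-C contacts aligned with BWA 0.7.15 and filtered at a mapping quality of 30. H3K27ac regions and their signal were deposited as enhancer lists, most of them pooled over samples. Columns of the tables that matched no sample used here (9) were left out. Groups came from the labels, and p-values measure the spread between these samples.

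Counts were rounded and tested with edgeR 4.0.16 (quasi-likelihood, TMM) per pair of groups, over PCGs above 0.5 TPM in at least 80% of a group, adjusted by Benjamini-Hochberg over all PCGs tested. All 6 members passed this filter in all 30 comparisons. The index was tested with limma 3.58.1 (with trend). DESeq2 1.42.0 was an alternative. Scripts were tested on simulated data. Promoters and gene positions came from RefSeq on Sscrofa11.1, the build of the files. Of each member, the 3 PCGs with the highest Pearson correlation of 12 group means of log2(TPM + 1) were named, and of the other complement genes the 12 with most calls. The members and gene lists were chosen with earlier results of these data known. A shared replicate number counted as a pairing only where every pair of same-numbered samples deviated together (r above 0.1). This held for NC GOM with NC ULB, WG MAD with WG ULB, WG RAD with WG ULB and WL MAD with WL RAD. Under this rule 1 deviant library is enough to fail a comparison. In WG, GOM with MAD failed at 35 of 36 pairs above 0.1, and GOM with RAD at 37 of 39. GOM with ULB failed at 37 of 38 and MAD with RAD at 30 of 31. In NC, GOM with MAD had 5 of 9. The main tests between ATs had no term for the animal and treated depots of a pig as independent.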

Additional observations from a re-analysis of the deposited data

Results flagged for a closer look

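In WL ULB, CFB of replicate 10 stood apart from the other 9 libraries, at 15.4 TPM where the next highest had 5.27 TPM. The same library had 576 TPM of ALB, the only WL ULB library above 500 TPM, and the highest C3 of its group, at 82.0 TPM. Without the libraries above 500 TPM of ALB, CFB was lower in WL ULB than in NC ULB by 1.36 on the log2 scale (edgeR adjusted p = 0.000348), against 1.31 with them. SERPING1 of WL ULB replicate 7 lay below its group, at 134 TPM where the next lowest library had 240 TPM, and that library also had the lowest CFB, at 3.04 TPM. Each of the 6 genes was examined in the 6 groups of 5 to 10 libraries, and 2 of these 36 sets of values had a library far from the others, where 1.8 would be reached by chance at 1 in 20. The sets share libraries. The part of these libraries in the group differences was not tested beyond leaving out those rich in ALB.

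The change of C3 between WG and WL differed among the 4 ATs by edgeR's test of the interaction (adjusted p = 0.0499), with log2 changes of 0.78 and 0.48 in GOM and MAD against -0.44 and -0.96 in RAD and ULB. DESeq2 gave an adjusted p of 0.0133, a term for the libraries high in mitochondria-encoded genes gave 0.0311 and leaving out the libraries rich in ALB gave 0.000148. It was 0.058 without the filter on low values, 0.168 with a term for libraries with under 88% of TPM on PCGs, 0.775 without those libraries, 0.132 within the low mitochondrial set and 0.21 without the 4 libraries rich in T and B cell markers. Leaving out NC ULB replicate 5, 7 or 9 moved it to between 0.0502 and 0.0527.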

How the results depend on the processing

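Over the single comparisons of a member's expression under another setting, 1562 kept their direction and their side of the threshold, 56 became called, 118 turned in sign with neither value called, 4 turned with at least 1 value called and the rest were no longer called. Those 118 include SERPING1 from WG to WL in MAD, RAD and ULB within the low mitochondrial set. The 4 were SERPING1 from WG to WL GOM, at 0.67 with a term for the mitochondrial sets and 0.65 within the low set, CFI from NC to WL RAD, at 0.88 without the libraries rich in ALB, and C3 from NC MAD to NC RAD, at -1.08 in DESeq2 against 0.12 in edgeR. Between nutritional groups 15 calls were made in 72 tests of the 6 genes, against 17 without a limit on the fold, 18 in DESeq2, 16 without a filter, 10 without the libraries with under 88% of TPM on PCGs, 20 without those rich in ALB, and 5 against 12 in the 10 comparisons the low mitochondrial set allowed. Between ATs there were 53 calls, and 36 to 56 under the settings that used all comparisons other than the block. Leaving out 1 NC ULB library gave 5 to 8 calls between ATs (5 without replicate 7) where all gave 8, and 2 to 3 calls between nutritional groups (2 without replicate 12) where all gave 3. The change that differed among ATs, C3 alone, became 0 members without a filter, with a term for the libraries with under 88% of TPM on PCGs or without them, without those rich in T and B cell markers and within the low set, 2 without those rich in ALB, and 0 to 1 without 1 NC ULB or WG GOM library. At the A-B index, 44 calls became 86 without a limit on the difference and 29 after quantile normalization, with 3 to 6 (3 without replicate 2 or 5) in place of 6 for NC ULB when 1 of its samples was left out. H3K27ac regions numbered 47 pairs for super-enhancers alone, and 2 of the 18 most alike genes were the same by Spearman's rho. The cause of these changes was not tested. The 5 libraries of NC ULB and the few NC libraries of the low set limit the precision of their comparisons.

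With the replicate number as a block, 15 calls between nutritional groups stayed 15 in number, 53 between ATs became 57, and 44 at the A-B index became 37. Between nutritional groups the samples share a number only, and the block kept the numbers that both groups hold. There it ended the calls of C3 and SERPING1 from NC to WG GOM, CFI from WG to WL GOM, CFB from NC to WG MAD and C2 from NC to WL MAD, and added C7 from WG to WL in GOM and RAD, CFI from WG to WL in MAD and RAD, and CFB from WG to WL in RAD.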
